A study of Mus musculus with 8 samples.

Results

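The genes of the myostatin and activin pathway were read from counts per gene in mouse gastrocnemius, the large calf muscle, at 4 ages. The 10 genes, of 49315 counted, included the ligand genes Mstn, Gdf11, Inhba and Inhbb and the antagonist genes Fst and Fstl3. The others were the type II receptor genes Acvr2a and Acvr2b, the signal transducer gene Smad3 and the inhibitor gene Smad7. They were taken by symbol, with earlier results of these data known. All 10 passed the filter on low counts, which left 19571 genes to test. The muscles came from C57BL/6 mice aged 3, 12, 24 or 30 months, with 2 libraries of total RNA per age and 8 in all. No genotype or treatment is given for any group, so age is the only named difference. Nothing in the labels says that 2 libraries of the same age are 2 animals, and p-values here measure only the spread between libraries, which may be technical. In whole muscle, fewer cells of a type and less RNA per cell cannot be told apart.

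Myostatin, the product of Mstn, is a secreted factor made by skeletal muscle that restrains muscle growth, and animals without it are heavily muscled. Myostatin, GDF11 and the activins are dimers of the transforming growth factor beta family. They bind the type II receptors ACVR2A and ACVR2B, which recruit a type I receptor such as ACVR1B, and the receptor complex then phosphorylates SMAD2 and SMAD3. Follistatin and its relative FSTL3 trap these ligands outside the cell, and SMAD7 blocks the receptor from inside it.

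Libraries of the same age were not alike. Totals were 42404254 to 59245029 counts. Levels are given in CPM, the count scaled to a library's total and to its TMM (trimmed mean of M-values) factor. A summed level of 9 kidney genes was 48.1 and 15.5 CPM in replicates 1 and 2 of 3 months, 5.18 CPM in replicate 1 of 12 months, 3.70 CPM in replicate 1 of 24 months and 2.93 CPM in replicate 2 of 30 months. The other library of these later ages had 0.546, 0.175 and 0.593 CPM. Libraries above 1 CPM, 5 in all, are called kidney-high here and the 3 others kidney-low, which are sets read from the data and not groups of the study. A clock score, the mean log2 level of 5 genes that peak with Dbp minus that of 3 that peak with Arntl, was at most 0.61 in kidney-high libraries and at least 2.28 in kidney-low ones. Each later age had 1 library of either set, but 3 months had kidney-high ones alone, so age results were computed with and without a term for the set. Fast fibre markers, which define the labelled muscle, were abundant in every library, with a summed level of 84446 to 152840 CPM and counts for 9 of 9.

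Levels of the 10 genes spanned a wide range. Per kilobase of gene model, Mstn had the highest median over the 8 libraries, 26.6 CPM per kilobase, above 94.3% of tested genes. Smad3 followed at 18.1, Acvr2a at 8.83, Gdf11 at 6.06, Acvr2b at 3.96, Smad7 at 2.40 and Fst at 1.99 CPM per kilobase. The activin subunit genes were low, with Inhbb at 0.746 and Inhba at 0.329 CPM per kilobase, and Fstl3 lay between them at 0.363. Ranges over the libraries overlapped for each pair of neighbours in this order except Smad3 (13.5 to 21.6) with Acvr2a (6.29 to 10.1), and Fst (1.18 to 3.29) with Inhbb (0.353 to 1.02 CPM per kilobase).

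**Figure D1:**
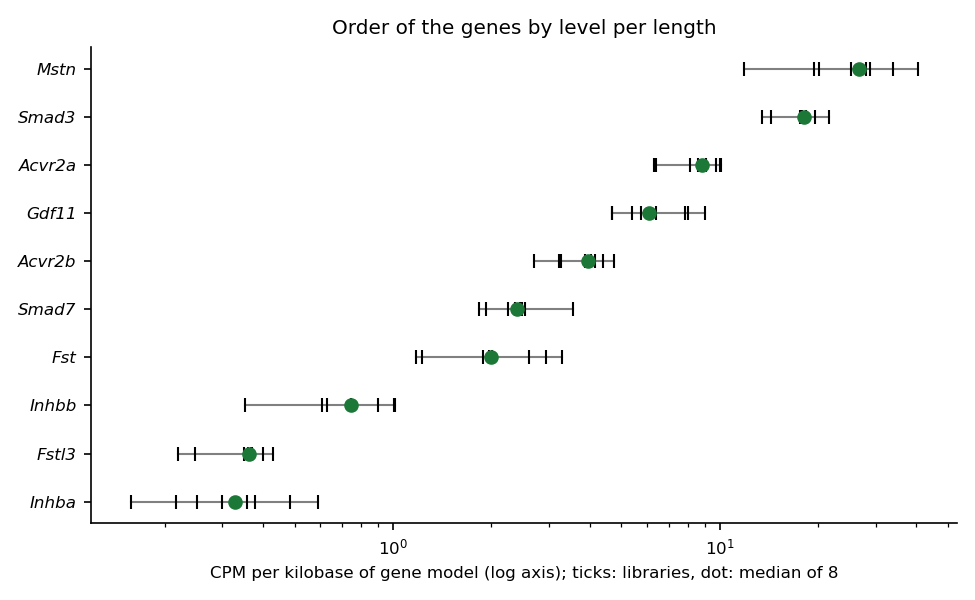
Levels of the 10 genes in CPM per kilobase of gene model on a log axis, with a tick for each of the 8 libraries, a line over their range and a dot for their median. Mstn and Smad3 sit at the top with medians of 26.6 and 18.1, and Inhba at the bottom with 0.329.

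Promoters are shown for 4 genes whose levels parted libraries of the same age. Mstn and Gdf11 were lower in kidney-high libraries. Inhba ran the other way but did not pass the test between the library sets. Acvr1b is the type I receptor gene with the pattern most like that of Mstn among receptors. Fst and Smad7 had no window among the sequences used. Each sequence is the 250 bases before the start of the gene in RefSeq on GRCm38.p6, read on the strand of the gene. Capitals mark E-boxes (CANNTG), the motif bound by muscle regulators such as MyoD and by clock factors, and the TATA motif (TATAAA), on either strand.
Mstn, chr1:53061390-53061639, plus strand: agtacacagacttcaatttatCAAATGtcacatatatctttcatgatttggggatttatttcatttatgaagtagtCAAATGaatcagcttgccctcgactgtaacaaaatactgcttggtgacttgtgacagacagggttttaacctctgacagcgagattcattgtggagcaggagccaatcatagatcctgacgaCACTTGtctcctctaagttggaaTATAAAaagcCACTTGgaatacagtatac
Gdf11, chr10:128891719-128891968, minus strand: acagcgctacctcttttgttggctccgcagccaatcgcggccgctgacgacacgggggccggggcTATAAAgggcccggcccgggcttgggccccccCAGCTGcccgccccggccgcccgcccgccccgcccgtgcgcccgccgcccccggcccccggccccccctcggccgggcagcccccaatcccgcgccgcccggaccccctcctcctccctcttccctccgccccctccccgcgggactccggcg
Inhba, chr13:16011601-16011850, plus strand: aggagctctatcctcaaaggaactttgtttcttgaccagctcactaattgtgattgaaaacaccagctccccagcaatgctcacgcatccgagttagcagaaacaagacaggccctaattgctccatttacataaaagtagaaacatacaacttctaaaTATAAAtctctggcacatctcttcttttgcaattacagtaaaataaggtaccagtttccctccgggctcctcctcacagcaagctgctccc
Acvr1b, chr15:101173822-101174071, plus strand: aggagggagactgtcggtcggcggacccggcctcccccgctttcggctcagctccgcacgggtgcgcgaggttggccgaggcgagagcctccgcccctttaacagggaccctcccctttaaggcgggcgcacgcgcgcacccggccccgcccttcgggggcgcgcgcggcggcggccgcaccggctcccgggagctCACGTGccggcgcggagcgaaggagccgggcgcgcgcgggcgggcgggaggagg

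The Mstn window held 4 E-boxes, which begin 229, 174, 52 and 19 bases before the start, and a TATA motif that begins 29 bases before it. One E-box stood in the Gdf11 window, with a TATA motif 185 bases before the start. The Inhba window held 0 E-boxes and a TATA motif 91 bases before the start. Of member windows not shown, those of Acvr2a, Acvr2b and Smad3, all lower in kidney-high libraries at every later age, also held 0. So did that of Inhbb, which was higher there, while the Fstl3 window held 3 E-boxes. Any part of E-boxes in these directions was not tested. The single E-box of Acvr1b, 54 bases before the start, had the letters CACGTG, a form of CANNTG that clock factors bind and that was in 0 of the 8 member windows in the table. Of all 32851 windows of that length, 66.2% held CANNTG, 6.02% CACGTG and 12.4% TATAAA. The motif CAGAC, which SMAD3 can bind, occurred 2 times in the Mstn window and was in 42.2% of all windows, with both strands searched. G and C made up 38.4% of the Mstn window and 81.2% of that of Gdf11, with a median of 52.4% over all windows.

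Among the ligands, Mstn (ENSMUSG00000026100, chromosome 1, 53061640 to 53068079 on GRCm38) did not pass a test between ages. Its CPM in replicates 1 and 2 were 68.2 and 76.0 for 3 months, 54.5 and 91.9 for 12 months, 52.7 and 109 for 24 months, 77.9 and 32.1 for 30 months. The libraries of 3 months lay close together, and those of each later age lay far apart, 1 above and 1 below them. Means were 55.0 ± 32 CPM for 30 months and 72.1 ± 5.5 CPM for 3 months (SD, n = 2 each). The fitted log2 ratio of 30 over 3 months was -0.39 (SE 0.47, adjusted p = 0.89 in edgeR's quasi-likelihood test, 95% interval -1.47 to 0.69). One library set its sign: leaving out replicate 2 of 30 months gave 0.12, and leaving out replicate 1 gave -1.17.

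Gdf11 (ENSMUSG00000025352, chromosome 10, 128882295 to 128891718), whose product is closely related to myostatin, had CPM of 19.0 and 23.3 for 3 months, 19.0 and 32.4 for 12 months, 25.9 and 36.7 for 24 months, 31.8 and 21.9 for 30 months. Both libraries of 24 months were above both of 3 months, as was the case for 20% of all tested genes, and the other ages overlapped with 3 months. Its log2 ratio was 0.57 for 24 over 3 months (SE 0.29, adjusted p = 0.692) and 0.34 for 30 over 3 months (SE 0.29, adjusted p = 0.825).

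Inhba (ENSMUSG00000041324, chromosome 13, 16011851 to 16027211) encodes the beta A subunit of activin A and was counted 16 to 60 times per library, so counting error alone is large. Its CPM were 0.497 and 0.593 for 3 months, 1.17 and 0.429 for 12 months, 0.709 and 0.312 for 24 months, 0.747 and 0.959 for 30 months. Both libraries of 30 months were above both of 3 months, while those of 12 and of 24 months lay on either side. The log2 ratio of 30 over 3 months was 0.64 (SE 0.52, adjusted p = 0.813). Inhbb (ENSMUSG00000037035, chromosome 1, 119415465 to 119422248), which encodes the beta B subunit of activin B, had CPM of 3.18 and 3.84 for 3 months, 3.17 and 2.57 for 12 months, 4.27 and 1.5 for 24 months, 2.68 and 4.32 for 30 months. Both libraries of 12 months were below both of 3 months, though 3.17 and 3.18 CPM nearly touched. The libraries of 24 and of 30 months surrounded those of 3 months. Means were 3.50 ± 1.2 CPM for 30 months and 3.51 ± 0.47 CPM for 3 months (SD, n = 2 each), and the interval of the log2 ratio ran from -0.99 to 0.99.

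Of the antagonists, Fst (ENSMUSG00000021765, chromosome 13, 114452262 to 114458730) encodes follistatin. Its CPM were 4.41 and 4.71 for 3 months, 6.12 and 2.75 for 12 months, 6.88 and 2.86 for 24 months, 4.59 and 7.69 for 30 months. As with Mstn, the libraries of 3 months lay close together and those of each later age far apart. The log2 ratio of 30 over 3 months was 0.43 (SE 0.48, adjusted p = 0.878), and without replicate 2 of 30 months it was 0.01. Fstl3 (ENSMUSG00000020325, chromosome 10, 79777272 to 79782630), counted 29 to 56 times per library, had CPM of 0.907 and 0.538 for 3 months, 0.857 and 0.897 for 12 months, 0.977 and 0.604 for 24 months, 0.879 and 1.05 for 30 months. Groups overlapped for each pair with 3 months, whose own libraries lay well apart. Its log2 ratio of 30 over 3 months was 0.43 (SE 0.36, adjusted p = 0.823). Fstl3 shares 1157 bases with Prss57 on the other strand, and no source used here gives the strand setting of the counting, so reads of both may be mixed. Inhba shares 11573 bases with B230303A05Rik and 6240 with Gm48444, and Fst shares 289 with Gm47040, all on the other strand. Those genes have no counts of their own here, so their reads may have fallen to Inhba and Fst.

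The type II receptor genes varied less than the ligand genes over the libraries. Acvr2a (ENSMUSG00000052155, chromosome 2, 48814109 to 48903269) had CPM of 51.6 and 57.0 for 3 months, 35.7 and 48.8 for 12 months, 46.2 and 55.3 for 24 months, 57.2 and 36.2 for 30 months. Both libraries of 12 months were below both of 3 months, with a log2 ratio of -0.36 (SE 0.24, adjusted p = 0.901), and 24 and 30 months overlapped with 3 months. Acvr2b (ENSMUSG00000061393, chromosome 9, 119402118 to 119434995) had its lowest CPM, 10.6, and its highest, 18.6, both at 30 months, and 12.6 and 15.9 at 3 months. For 30 over 3 months the log2 ratio was 0.03 (SE 0.26, adjusted p = 0.986, 95% interval -0.55 to 0.62). Per kilobase, Acvr2a exceeded Acvr2b in each of the 8 libraries, by 1.93 to 2.83 times, and the highest ratios, 2.83 and 2.48, were those of 3 months. Acvr2a shares 446 bases with Orc4 and Acvr2b shares 3909 bases with the antisense gene Gm47320, so their reads may be mixed as well.

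Among the Smad genes, Smad3 (ENSMUSG00000032402, chromosome 9, 63646767 to 63757994), whose product carries the signal of these ligands to the nucleus, had CPM of 99.0 and 120 for 3 months, 102 and 108 for 12 months, 79.5 and 101 for 24 months, 97.9 and 74.9 for 30 months. Both libraries of 30 months were below both of 3 months, though 97.9 and 99.0 nearly touched. The log2 ratio of 30 over 3 months was -0.34 (SE 0.20, adjusted p = 0.699), and the slope was -0.013 per month (SE 0.0059, adjusted p = 0.484). Smad7 (ENSMUSG00000025880, chromosome 18, 75367529 to 75395935), which encodes an inhibitor that the pathway itself switches on, had CPM of 8.73 and 11.2 for 3 months, 11.1 and 16.1 for 12 months, 11.5 and 8.26 for 24 months, 10.7 and 10.2 for 30 months. Replicate 2 of 12 months stood above the rest, and groups of 30 and 3 months overlapped, with a log2 ratio of 0.07 (SE 0.23, adjusted p = 0.965).

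**Figure D2:**
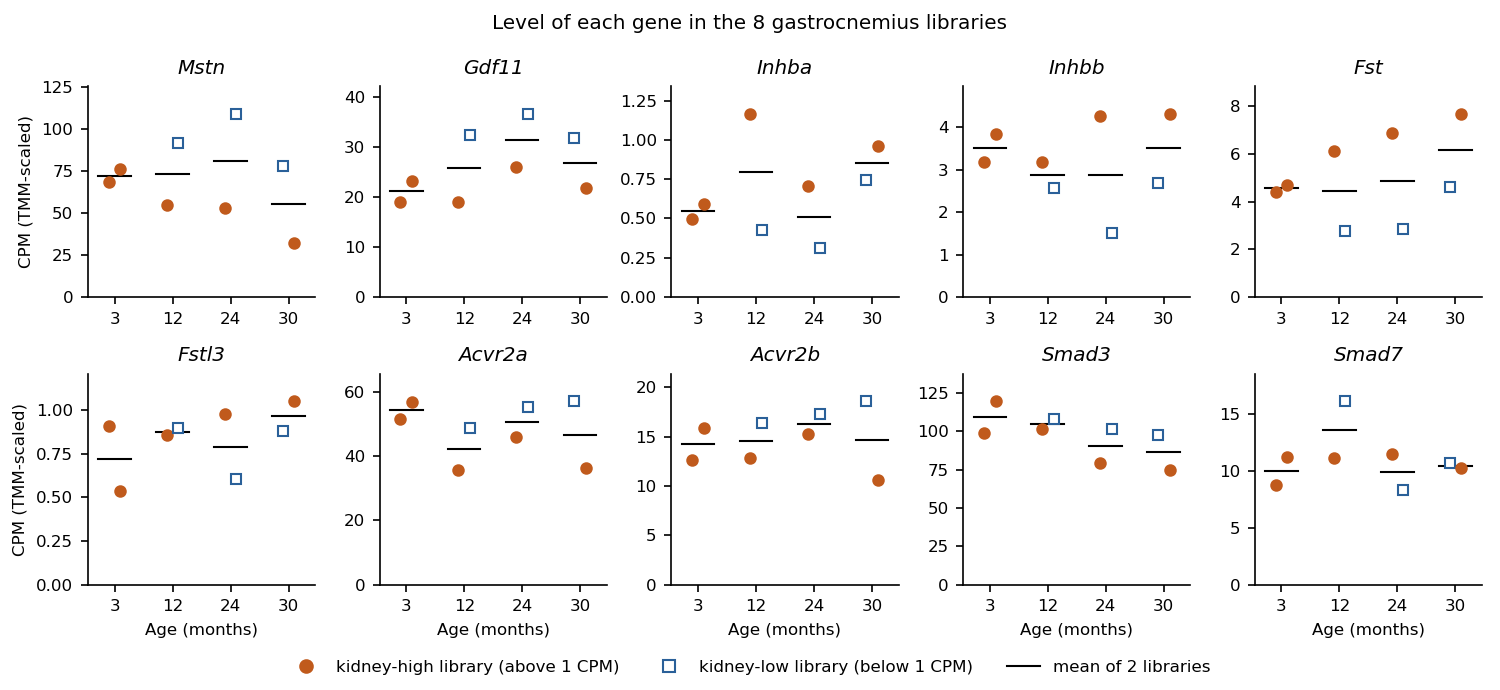
TMM-scaled CPM of each gene (vertical axes, each from 0) against age in months, with filled circles for kidney-high and open squares for kidney-low libraries and a line at the mean of the 2 libraries of an age. Mstn libraries of 3 months lie at 68.2 and 76.0 CPM, and the 2 libraries of each later age lie far apart.

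Across all comparisons of ages, 0 of the 10 genes passed in edgeR's quasi-likelihood test, at a threshold of 0.05 on the adjusted p. Calls were also rare among all tested genes, at 0.0409% for 12 over 3 months, 0.102% for 24 over 3 months, 0.148% for 30 over 3 months, 0% for 24 over 12 months, 0.00511% for 30 over 12 months, 0% for 30 over 24 months, 0.0613% across the 4 ages and 0.133% in the slope. At an unadjusted p under 0.05, 0 of the 10 passed in a pair or across the ages and 1, Smad3, in the slope. In the same order, 5.5%, 7.56%, 8.52%, 3.07%, 5.21%, 3.1%, 5.66% and 9.83% of all tested genes did. DESeq2 and limma-voom also called 0 of the 10. Over the 10 genes the median log2 ratio of 30 over 3 months was 0.05, and 6 were above 0, against a median of 0.01 over all tested genes. Groups of 30 and 3 months did not overlap for Inhba, which was higher, and Smad3, which was lower, against 21.1% and 20.2% of all tested genes. For 12 over 3 months 2 of the 10, Inhbb and Acvr2a, were lower without overlap, against 19.2%, though the groups of Inhbb nearly touched. All comparisons with 3 months share its libraries.

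With the library set as a term, chosen after seeing the data, 2 of the 10 genes passed for 30 over 3 months, 1 higher and 1 lower, where 2.13% of all tested genes did, 1.48% higher and 0.644% lower. Mstn fell, with a log2 ratio of -1.04 (SE 0.16, adjusted p = 0.00956), and Fst rose, by 0.90 (SE 0.19, adjusted p = 0.0373), in edgeR's quasi-likelihood test. Inhba at 1.10 (adjusted p = 0.181), Smad3 at -0.49 (adjusted p = 0.152) and Acvr2a at -0.48 (adjusted p = 0.14) did not pass. Over all settings of this comparison the adjusted p ran from 0.00569 to 1 for Mstn and from 0.029 to 1 for Fst. Both calls rest on taking the libraries of 3 months as kidney-high, since placing them with the kidney-low ones gave -0.01 for Mstn and -0.14 for Fst. Within the kidney-high set they also had the highest kidney levels and the lowest clock scores, -0.88 and -0.72, so age and these measures cannot be told apart there.

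Single libraries moved these calls too. Mstn was not called without replicate 2 of 3 months (-0.95, adjusted p = 0.0667) or without replicate 2 of 30 months (-0.79, adjusted p = 0.281). Fst was not called without any single library of 3, 12 or 30 months, with adjusted p from 0.0586 to 0.183. Among kidney-high libraries, Mstn was at 32.1 CPM in the library of 30 months, against 68.2 and 76.0 CPM in those of 3 months, and Fst was at 7.69 CPM for 30 months, against 4.41 and 4.71 CPM for 3 months. In the same fit Mstn passed across the 4 ages (adjusted p = 0.0449, where 1.04% of all genes passed), and Fst passed in the slope at 0.029 per month (adjusted p = 0.05, just under the threshold before rounding, where 1.51% passed). For 12 over 3 months 0 of the 10 passed, where 0.148% of all genes did, and likewise for 24 over 3 months (0.363%) and 30 over 12 months (0.281%).

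**Figure D3:**
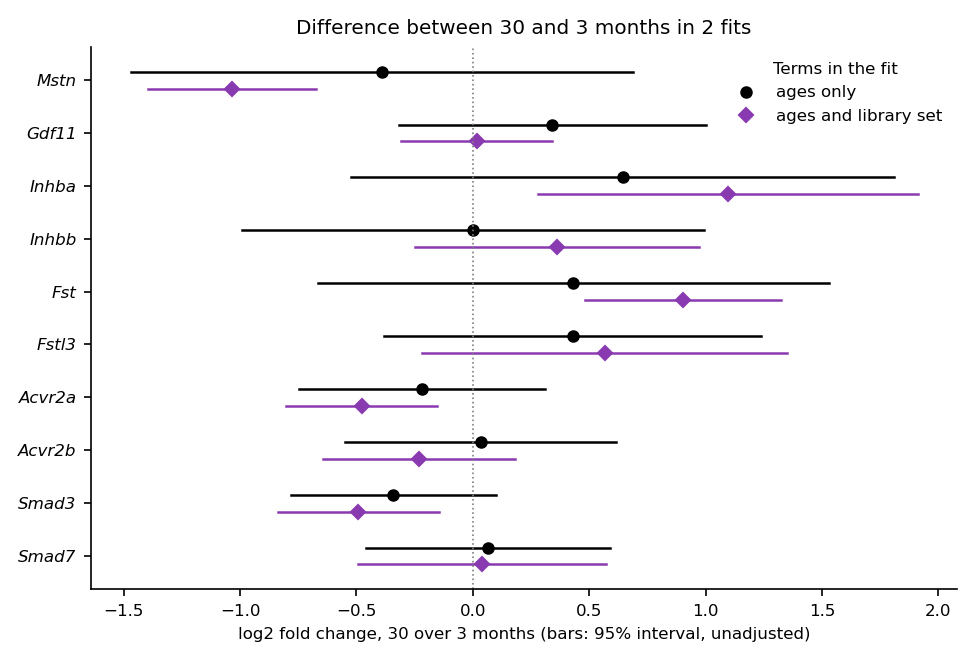
Log2 ratio of each gene for 30 over 3 months, with black circles for the fit on ages and purple diamonds for the fit on ages and library set; bars are 95% intervals not adjusted for the number of genes. Mstn is at -1.04 and Fst at 0.90 in the second fit, and Smad7 is near 0 in both.

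Fibre type markers were read beside these values. The summed level of 9 fast fibre markers was 138720 and 84446 CPM for 30 months, against 99639 and 144630 CPM for 3 months, replicate 1 first. For 7 slow fibre markers it was 1529 and 2676 CPM for 30 months, against 766 and 499 CPM for 3 months. Replicate 2 of 30 months had the lowest Mstn level, the lowest summed fast fibre level and the highest summed slow fibre level of the 8 libraries. Of the 9 fast fibre markers 6 were lowest there, while Myh1, a fast myosin heavy chain gene, was highest there at 6953 CPM. The part of fibre type in the Mstn values was not tested.

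Within each later age the 2 libraries differed in the pathway, and several genes did so in the same direction at 12, 24 and 30 months. Kidney-high libraries had less Mstn, with 54.5, 52.7 and 32.1 CPM at these ages, against 91.9, 109 and 77.9 CPM in kidney-low ones. They had more Fst, with 6.12, 6.88 and 7.69 CPM, against 2.75, 2.86 and 4.59 CPM in kidney-low ones. The ligand gene and its antagonist gene thus ran in opposite directions at all 3 ages. In the kidney-high library 22.2% of all tested genes were higher and 21.2% lower at all 3 ages. For neither gene did the later libraries of the sets overlap, and how many of all genes share this was not counted. With age and set in the model, the log2 difference of kidney-high minus kidney-low was -1.03 for Mstn (SE 0.12, adjusted p = 0.00213) and 1.05 for Fst (SE 0.15, adjusted p = 0.00512) in edgeR's quasi-likelihood test.

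Gdf11 was lower too, with 19.0, 25.9 and 21.9 CPM in kidney-high libraries, against 32.4, 36.7 and 31.8 CPM in kidney-low ones, a difference of -0.60 (SE 0.11, adjusted p = 0.014). Acvr2a was at 35.7, 46.2 and 36.2 CPM in kidney-high libraries, against 48.8, 55.3 and 57.2 CPM in kidney-low ones, a difference of -0.46 (SE 0.11, adjusted p = 0.0367). With Mstn and Fst, these were 4 of the 10 genes, 1 higher and 3 lower, where 5.74% of all tested genes were called, 3.1% higher and 2.64% lower. At an unadjusted p under 0.05, 8 of the 10 passed, against 22.6%. Mstn and Fst kept their calls under other scalings, filters and limma-voom and without any single library. Under scaling by library totals the count was also 4, but Gdf11 (-0.40, adjusted p = 0.0502) and Acvr2a (-0.26, adjusted p = 0.192) lost their calls while Inhba and Inhbb gained one. The count was 2 without replicate 1 or replicate 2 of 12 months. Over all settings the adjusted p ran up to 0.0979 for Gdf11 and up to 0.268 for Acvr2a.

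The other 6 genes did not pass. Inhba was at 1.17, 0.709 and 0.959 CPM in kidney-high libraries and at 0.429, 0.312 and 0.747 CPM in kidney-low ones, a log2 difference of 0.97 (SE 0.29, adjusted p = 0.0702). Inhbb was at 3.17, 4.27 and 4.32 CPM in kidney-high libraries and at 2.57, 1.5 and 2.68 CPM in kidney-low ones, a difference of 0.82 (SE 0.22, adjusted p = 0.0508). Each activin gene was thus higher in the kidney-high library at all 3 ages. Neither passed here, but under scaling by library totals Inhba (1.17, adjusted p = 0.0187) and Inhbb (1.02, adjusted p = 0.00755) did, and over all settings their adjusted p ran from 0.0187 to 0.309 and from 0.000317 to 0.18. Acvr2b differed by -0.45 (SE 0.14, adjusted p = 0.084) and Smad3 by -0.28 (SE 0.12, adjusted p = 0.19), lower at 3 of 3 ages, and Acvr2b passed without replicate 2 of 24 months (adjusted p = 0.0443) and without a filter on low counts (adjusted p = 0.00628). Fstl3 at 0.29 and Smad7 at -0.05 had no common direction over the ages, and Smad7 was at 0.15 under scaling by library totals. In all, 3 genes were higher and 5 lower in the kidney-high library at all 3 ages, against 22.2% and 21.2% of all tested genes.

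**Figure D4:**
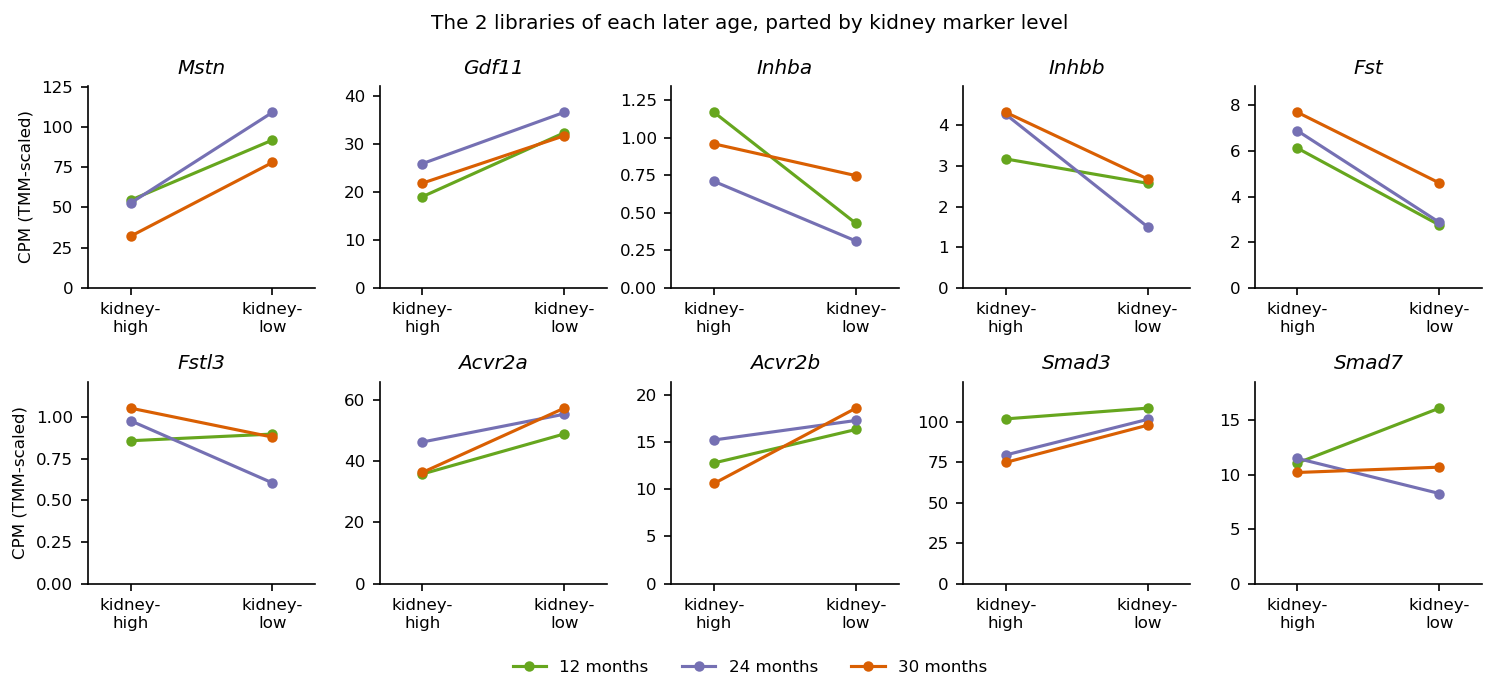
TMM-scaled CPM of each gene in the kidney-high and the kidney-low library of 12, 24 and 30 months, with a line joining the 2 libraries of an age. Lines of Mstn, Gdf11, Acvr2a, Acvr2b and Smad3 run up from kidney-high to kidney-low at all 3 ages, and those of Inhba, Inhbb and Fst run down.

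The ratio of Mstn to Fst, each per kilobase, showed the contrast within single libraries. It was 13.4 and 13.9 for 3 months. In later kidney-high libraries it was 7.70, 6.62 and 3.60 at 12, 24 and 30 months, against 28.9, 32.9 and 14.7 in kidney-low ones. The kidney-low library of 30 months was thus close to those of 3 months, and the other later libraries lay below or above them by set. The ratio of Mstn to Gdf11 ran from 2.20 to 5.38, and its highest values, 5.38 and 4.91, were those of 3 months.

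Several markers parted the same libraries. Over the later ages the summed fast fibre level was 84446 to 114870 CPM in kidney-high libraries and 136230 to 152840 CPM in kidney-low ones, with 4 of the 9 markers lower in the kidney-high library at all 3 ages and 0 higher. Slow fibre ranges overlapped over these ages, at 1268 to 2676 CPM in kidney-high libraries and 914 to 1529 CPM in kidney-low ones. Within each age the kidney-high library was higher, with 1268, 1313.5 and 2676 CPM at 12, 24 and 30 months. The kidney-low ones had 914, 1027 and 1529 CPM. Markers of fibroblasts and fibroadipogenic progenitors were at 626 to 947 CPM in kidney-high libraries and at 487 to 572 CPM in kidney-low ones, and without Col1a1 at 498 to 686 CPM in kidney-high and 394 to 476 CPM in kidney-low ones. Non-muscle cells of 2 more kinds did not overlap either. Endothelial markers were at 228 to 253 CPM in kidney-high and 182 to 199.9 CPM in kidney-low libraries, and macrophage markers at 166 to 291 CPM in kidney-high and 110.1 to 163 CPM in kidney-low ones. These are sums, and the endothelial marker Vwf ran the other way at 12 and 24 months. It was at 41.5 and 44.0 CPM in kidney-high and 47.3 and 48.0 CPM in kidney-low libraries. So did Pecam1 at 24 months, at 47.5 CPM against 49.1 CPM. Clock genes that peak with Dbp were at 168 to 225 CPM in kidney-high libraries and at 261 to 339 CPM in kidney-low ones. In that sum Nr1d1 ran the other way at 12 and 24 months. It was at 41.3 and 61.4 CPM in kidney-high and 24.0 and 32.5 CPM in kidney-low libraries. Heart markers, low throughout, were at 2.82 to 4.81 CPM in kidney-high libraries and 2.10 to 2.64 CPM in kidney-low ones, with counts for 3 or 4 of 5. Adipocyte, tendon, Schwann and satellite cell markers overlapped between the sets. Apart from heart, each of these lists had counts for every marker in every library, while the kidney list had counts for 9 of 9 in kidney-high and 3 to 5 of 9 in kidney-low libraries. The part of fibres, other cells and clock phase in the differences of Mstn and Fst was not tested.

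**Figure D5:**
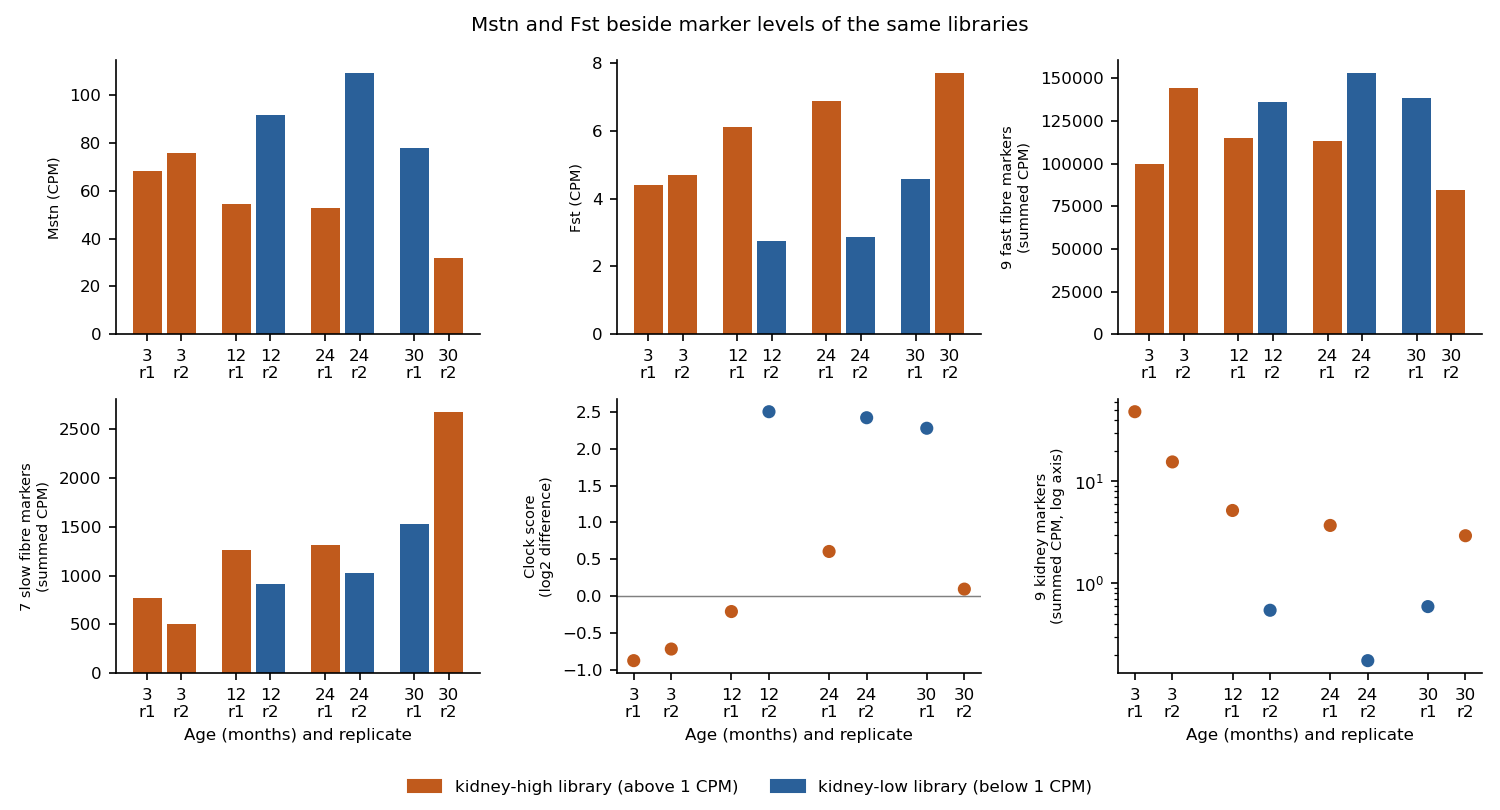
Mstn and Fst in CPM, summed CPM of fast fibre, slow fibre and kidney markers, and the clock score (log2) in each of the 8 libraries, by age and replicate; orange marks kidney-high and blue kidney-low libraries, and the kidney panel has a log axis. Replicate 2 of 30 months has the lowest Mstn, 32.1 CPM, and the lowest fast fibre level, 84446 CPM.

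Other genes of the transforming growth factor beta family came from lists by role in the pathway. Of 69 such genes 64 were tested, and 0 passed in any pair of ages in edgeR's quasi-likelihood test. At an unadjusted p under 0.05, 10.9% of the 64 (7 genes) passed for 30 over 3 months, 15.6% (10) for 24 over 3 months and 4.69% (3) for 12 over 3 months, against 8.52%, 7.56% and 5.5% of all tested genes. Of 13 tested ligand genes 11 had a log2 ratio of 30 over 3 months above 0, with a median of 0.39, where 51.4% of all tested genes were above 0 and their median was 0.01. For 12 over 3 months 11 of the 13 were above 0 as well, with a median of 0.17, where 50.5% of all tested genes were. For 24 over 3 months 7 of the 13 were above 0, with a median of 0.04. These comparisons share the libraries of 3 months. Tgfb3, a ligand gene of the transforming growth factors proper, was at 49.7 and 43.3 CPM for 30 months, against 34.9 and 36.0 CPM for 3 months, a ratio of 0.39 on the log2 scale (SE 0.15, adjusted p = 0.496). Groups did not overlap for it, nor for Tgfb1, whose log2 ratio was 0.48 (adjusted p = 0.561). Among all tested genes 21.1% were higher at 30 than at 3 months without overlap. Gdf15, which encodes a stress-induced factor, was at 1.23 (adjusted p = 0.513) with levels of at most 0.357 CPM.

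Among 11 tested receptor genes the lowest p belonged to Bmpr1b, with a log2 ratio of 0.39 (adjusted p = 0.658), Tgfbr2, the type II receptor gene of transforming growth factor beta, at 0.27 (adjusted p = 0.659), and Acvr1c, at -0.75 (adjusted p = 0.761). Among 13 genes of Smads and their regulators it belonged to Smurf2, which encodes a ubiquitin ligase acting on receptors and Smads, at -0.39 (adjusted p = 0.51), Zfyve9, which encodes an anchor that brings Smads to receptors, at -0.35 (adjusted p = 0.723), and the corepressor gene Skil at -0.27 (adjusted p = 0.737). Smurf2 was at 43.0 and 41.7 CPM for 30 months, against 56.8 and 54.2 CPM for 3 months, without overlap. The same held, in this direction, for 20.2% of all tested genes.

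Among 18 genes of binding proteins and proprotein processing, Tll2 stood at -1.35 (adjusted p = 0.614) with levels of at most 0.346 CPM, the proprotein convertase gene Pcsk6 at -0.33 (adjusted p = 0.614) and the procollagen protease gene Bmp1 at -0.37 (adjusted p = 0.653). Among 12 known target genes, Col1a1, which encodes a chain of type I collagen, was at 126 and 138 CPM for 30 months, against 447 and 505 CPM for 3 months, a log2 ratio of -1.85 (SE 0.54, adjusted p = 0.344). Its groups lay far apart, and its adjusted p over other settings ran from 0.000315 to 0.935. Fibroblasts make this collagen, and Col1a1 is itself 1 of their 7 markers here. The other 6 summed to 445 and 498 CPM for 30 months, against 557 and 559 CPM for 3 months, and their part in the Col1a1 values was not tested. Ccn2, a connective tissue growth factor gene, stood at -0.50 (adjusted p = 0.407). Of the 12 target genes 5 were above 0.

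Between the library sets, 8 of the 64 genes passed (edgeR), of which 5 were higher and 3 lower in kidney-high libraries. Among all tested genes 5.74% passed, 3.1% higher and 2.64% lower. The genes named here were chosen after their values were seen. Higher were Cdkn1a, a cell cycle inhibitor gene, by 1.60 on the log2 scale, the proprotein convertase gene Pcsk5 by 0.93, the follistatin-like gene Fstl1 by 0.62, Tgfbi, which encodes a matrix protein, by 0.61 and the ligand gene Bmp6 by 0.51. Among the lower ones, Acvr1b was at -1.09 and the ligand gene Tgfb2 at -0.42. Adjusted p-values of the 8 lay between 0.00068 and 0.0473. Of the 64, 22 had an unadjusted p under 0.05, where 22.6% of all tested genes did.

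Gdap1, Golm1, Map2k6, Acvr1b and Gpd1 had patterns over the 8 libraries closest to that of Mstn, out of 9650 genes compared. Likeness was the root mean square distance between log2 levels, each centred on its own mean, and was 0.10 for Gdap1 and 0.18 for Acvr1b, where Mstn itself deviated from its mean by 0.51. Gdap1, which encodes a mitochondrial outer membrane protein, was at 17.7, 17.1 and 11.0 CPM in kidney-high libraries of 12, 24 and 30 months, against 31.8, 33.1 and 23.4 CPM in kidney-low ones, and at 25.9 CPM in both libraries of 3 months. Acvr1b, which encodes the type I receptor through which myostatin signals in muscle cells, was at 40.1, 38.0 and 26.6 CPM in kidney-high libraries of these ages, against 80.7, 77.7 and 62.3 CPM in kidney-low ones, and at 38.9 and 53.4 CPM for 3 months. Its log2 ratio of 30 over 3 months was -0.05 (SE 0.51, adjusted p = 0.99).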

How the data were processed

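Frozen gastrocnemius was extracted with Trizol for NEBNext Ultra libraries of total RNA, as the labels' protocols describe. The authors deposited raw whole-number counts for each Ensembl gene, with its length. The submitters' processing notes list Trimmomatic 0.36, STAR 2.5.2b, featureCounts, Subread 1.5.2 and the build GRCm38 (mm10), with no role for each. Annotation release, strand setting and handling of multi-mapped reads: not given in the sources used here. Symbols were looked up in GENCODE M21 (GRCm38), where 48970 of 49315 identifiers were found.

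Genes were filtered with filterByExpr on age in edgeR 4.0.16 under R 4.3.3, scaled by TMM and fitted by robust quasi-likelihood, with 4 ages over 8 libraries and 4 residual degrees of freedom, or 3 with the library set. A call is a Benjamini-Hochberg adjusted p under 0.05 over the 19571 tested genes. SE is the log2 ratio over the square root of F, and 95% intervals use the fit's total degrees of freedom. A count of 0 allows up to 0.0556 to 0.0659 CPM per library (3 counts, counting error only). The clock score used log2 of CPM plus 0.5.

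Members, lists, markers and library sets were chosen with earlier results of these data known. Other pathway genes were named if called against 3 months or across the ages, and otherwise up to 3 per list with the lowest p for 30 over 3 months. Some genes that these rules would name are not reported here. The 5 genes most like Mstn were taken among those with a mean log2 CPM of at least 2 (prior count 2). Alternatives were RLE size factors, library totals, 2 other filters, DESeq2 1.42.0, limma-voom 3.58.1, the 4 libraries compared alone, a replicate block, the library set, and each library left out. The procedure was also run on simulated counts that held no library sets, so that run cannot speak to their effect.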

Additional observations from a re-analysis of the deposited data

How the results depend on the processing

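Between ages, 0 members passed under RLE size factors, library totals, both other filters, DESeq2, limma-voom, the 4 libraries alone and each library left out. A term for the library set gave 2 for 30 over 3 months, 1 across the ages and 1 in the slope. With that term and a library left out, 0 to 3 passed for 30 over 3 months, and 0 did with the 3 month libraries in the other set. Between the library sets 7 passed without a low count filter, and 2 to 5 with a library left out. Correlations of the deviations of same-numbered libraries ran from -0.36 to 0.26. Replicate 1 was kidney-high at 12 and 24 months and kidney-low at 30 months. These correlations therefore carry the library set and cannot decide whether the numbers pair samples. With the replicate block 0 members passed, and 13 genes in all did for 30 over 3 months, against 29 without it. That count over all genes was 213 in DESeq2, 378 without a filter, 9 with the stricter filter, 416 with the library set and 10 to 52 with a library left out.

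Log2 ratios of the members between ages often changed sign, and no ratio with the other sign was called; the cause was not tested. For 12 over 3 months, Mstn was -0.020 under library totals, -0.0094 under the stricter filter, -0.024 in limma-voom and -0.54 with the set, against 0.02. With the set Gdf11 was -0.066, Inhbb 0.12, Fst 0.38 and Acvr2b -0.20. For 24 over 3 months, with the set Mstn was -0.44, Inhba 0.29, Inhbb 0.0025 and Acvr2b -0.032, and Fst was -0.037 in limma-voom. For 30 over 3 months, Inhbb was 0.062 under library totals, 0.00049 without a filter, 0.0062 under the stricter filter, 0.0018 with the 4 libraries alone, 0.011 with the replicate block and 0.36 with the set. Acvr2b was -0.022 in limma-voom and -0.23 with the set, and Fst was -0.14 with the set and the 3 month libraries in the other set. Between the sets Smad7 was 0.15 under library totals, a scaling that moved the median of all genes to 0.216.

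With a library left out, ratios for 12 over 3 months ran from -0.41 to 0.35 for Mstn, -0.16 to 0.62 for Gdf11, -0.35 to 1.08 for Inhba, -0.73 to 0.41 for Fst, -0.045 to 0.70 for Fstl3, -0.17 to 0.21 for Acvr2b and -0.19 to 0.090 for Smad3. For 24 over 3 months they ran from -0.46 to 0.60 for Mstn, -0.80 to 0.37 for Inhba, -1.22 to 0.28 for Inhbb, -0.67 to 0.58 for Fst, -0.25 to 0.55 for Fstl3, -0.24 to 0.026 for Acvr2a and -0.27 to 0.20 for Smad7. For 30 over 3 months, with or without the set, they ran from -1.17 to 0.12 for Mstn, -0.12 to 0.59 for Gdf11, -0.39 to 0.51 for Inhbb, -0.58 to 0.079 for Acvr2a, -0.43 to 0.39 for Acvr2b, -0.13 to 0.26 for Smad7 and -1.32 to 0.22 for Acvr1c. Between the sets Smad7 ran from -0.31 to 0.21. A lone library at an age was assumed to vary like the other ages. Counts of 16 to 60 limit Inhba, and 29 to 56 Fstl3.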
